A study of Mus musculus with 141 samples.

Results

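The LIM homeobox genes examined here are 10 mouse genes, Lhx1, Lhx2, Lhx3, Lhx4, Lhx5, Lhx6, Lhx8, Lhx9, Isl1 and Isl2, taken by name together with every CpG inside them or within 1 kb of either end. They are 10 of 21631 protein-coding genes on the chromosomes used. Their regions held 1501 positions of the methylation table, which made 1376 CpGs after the strands were joined. Of these CpGs, 348 were covered by 5 or more cells in both arms. They carry the levels of the genes below, except where another choice of CpGs is stated. A call is 1 CpG read as methylated or unmethylated in 1 cell. The cells are a mouse glioma line with the R132H mutation of Idh, sorted alive and profiled singly by reduced representation bisulfite sequencing, which reads CpG methylation mostly in CpG-dense sequence. One arm (67 cells) had been kept for over 2 weeks in 1 µM AG-881, also called vorasidenib, an inhibitor of the mutant IDH enzymes, and the other (74 cells) for the same time with the vehicle DMSO. All cells of both arms carry the mutation, so the comparison is between inhibitor and vehicle in mutant cells and holds no cells without the mutation.

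LIM homeobox proteins are transcription factors that carry a pair of LIM domains, which bind other proteins, ahead of a homeodomain, which binds DNA. Their LIM domains recruit the adaptor Ldb1, and combinations of these factors give classes of neurons their identity in the spinal cord, hindbrain and forebrain. Mutant IDH makes 2-hydroxyglutarate, which inhibits the TET enzymes that remove DNA methylation. In cells that do not use such developmental regulators, the CpG-rich starts are usually unmethylated and bound by Polycomb, and tumours are known for methylation of such starts.

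Each arm came from 1 plate with no separate cultures named in the labels, and is therefore treated as 1 sample; the differences have no replicate check, and no p-values are printed. The 4 library pools of each arm (AG-881 pools 1 to 4, DMSO pools 5 to 8) are technical batches. Each pool held cells of 1 arm, and pool and treatment cannot be told apart. AG-881 cells had calls at a median of 89440 CpGs and DMSO cells at a median of 67749, and at the 10 genes a cell had a median of 45 calls in AG-881 cells and 31 in DMSO cells. Over the 396065 CpGs of the whole table that passed the same minimum of 5 cells, 25.4% of calls were methylated in AG-881 cells and 26.8% in DMSO cells, a difference of -1.32 percentage points, and AG-881 pool 3 stood highest of all pools (28.4%). Intervals are exact 95% binomial (Clopper-Pearson) intervals. They cover counting error only and understate the spread from cell to cell, since calls of 1 cell in 1 gene go together.

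With calls pooled, the family as a whole was less methylated in AG-881 cells, most clearly away from the gene starts. Pooled over the 10 genes, 31.5% of calls were methylated in AG-881 cells (interval 29.9 to 33.2, 3082 calls) and 36.3% in DMSO cells (interval 34.4 to 38.1, 2662 calls), a difference of -4.75 points (interval -7.22 to -2.27). The AG-881 pools had 25.5%, 34.2%, 28.6% and 35.1%, and the DMSO pools 33.2%, 34.8%, 36.8% and 39.7%, so the pools of the arms overlapped. With every cell at the same weight the difference over the 10 genes was -1.47 points, near the -1.32 points found by calls over the whole table. Outside the starts, 44.5% of calls were methylated in AG-881 cells (interval 42.1 to 46.9, 1692 calls) and 52.4% in DMSO cells (interval 49.8 to 55, 1410 calls), a difference of -7.91 points (interval -11.5 to -4.33). There the 4 AG-881 pools, at 35.8%, 46.2%, 42.6% and 48.7%, all lay below the 4 DMSO pools, at 53%, 49%, 52.1% and 54.3%. Pool 3, the AG-881 pool with the highest level in the whole table, was below every DMSO pool at these CpGs. Within 1 kb of the starts the levels were close, 15.7% in AG-881 cells (1390 calls) and 18.1% in DMSO cells (1252 calls), and the interval of the difference (-2.37 points) ran from -5.29 to 0.541. A pool was left out in turn either by taking out its calls at the same CpGs or, since fewer CpGs then keep 5 cells per arm, with the CpGs chosen again. Without the calls of DMSO pool 8 at the same CpGs the difference at the starts was -0.464 points. It had the other sign, 0.762 points, when the CpGs were also chosen again without that pool, and 0.786 points when every cell had the same weight.

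Gene by gene, 9 of the 10 regions were lower in AG-881 cells and 1, Lhx1, was higher, with a median difference of -3.37 points. Among all 11653 gene regions measured, that is with 50 or more calls from 10 or more cells in both arms, 55.1% were lower and the median was -0.247 points. LIM homeobox genes are more methylated than most genes here, so a second background was made of the 3178 measured regions whose mean level lay in the range of the 10 genes (21.4% to 72.2%). Of those, 63% were lower and the median was -2.14 points. None of the 10 regions differed by 10 points or more, against 6.14% of all measured regions and 17.4% of those in the level range. In 1 of the 10, Isl2, all 4 AG-881 pools lay below all 4 DMSO pools, an arrangement in either direction found in 1.76% of all regions with at least 10 calls in every pool and in 2.72% of those in the level range. The interval of the difference did not include 0 at Lhx5 and Isl2, 2 of 10, against 9.43% of all measured regions and 16.9% of those in the level range. At the same CpGs, 5 of the 10 genes were lower without DMSO pool 8 and 6 without AG-881 pool 1.

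**Figure D1:**
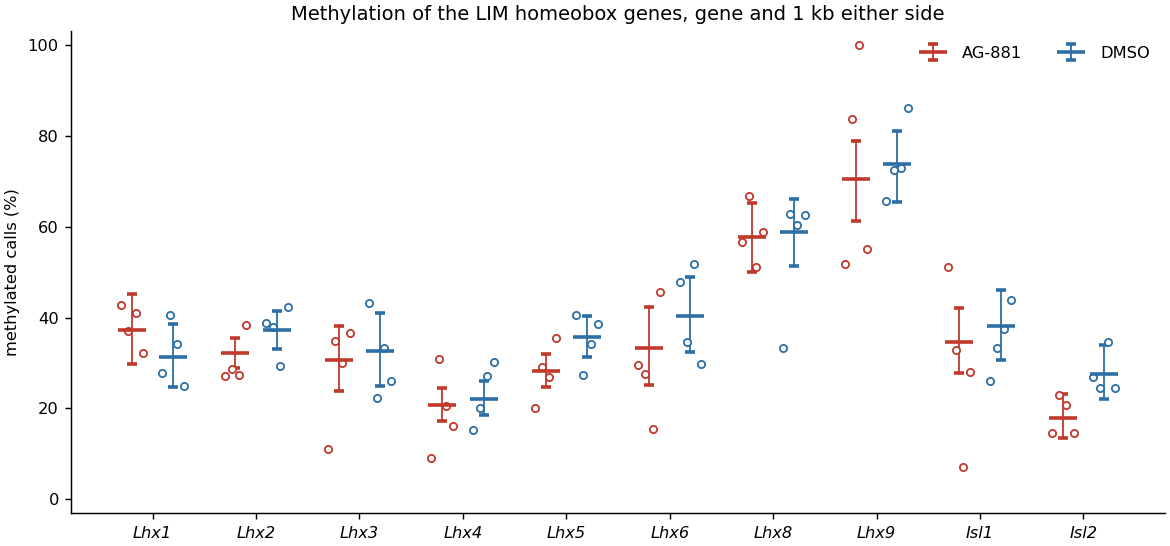
Methylated calls (%) in each LIM homeobox gene with 1 kb either side, in AG-881 cells left (red) and DMSO right (blue) for each gene. Thick bars are pooled levels with exact 95% intervals and open circles are library pools with at least 10 calls. Lhx9 is highest (70.5% in AG-881 cells, 73.8% in DMSO cells), and at Isl2 the circles of the arms do not overlap.

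The most and the least methylated genes were the same in both arms, but the order of the genes in between differed. Lhx9 was the most methylated gene (70.5% in AG-881 cells and 73.8% in DMSO cells), followed by Lhx8 (57.8% and 58.8%), and the intervals of these neighbours overlapped in AG-881 cells and in DMSO cells. Isl2 and Lhx4 were the least methylated in AG-881 cells (17.9% and 20.7%), and Lhx4 and Isl2 in DMSO cells (22.1% and 27.7%). The other 6 genes lay between 28.3% and 37.2% in AG-881 cells and between 31.4% and 40.4% in DMSO cells, with overlapping intervals in each arm. Of these, Lhx1 was the highest in AG-881 cells and the lowest in DMSO cells. By mean level, the 10 regions stood above 67.5% (Lhx4) to 94.7% (Lhx9) of all measured gene regions.

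At the starts, 9 genes had calls, 6 were measured, 5 of the 6 were lower in AG-881 cells, and the median difference was -3.17 points. Over all 9345 measured starts 50.7% were lower, at a median of -0.0154 points, and over the 2103 starts in the level range of the 6 genes (2.73% to 37.3%) 69.1% were lower, at a median of -1.82 points. The start of Lhx5 was the 1 of 6 that differed by at least 10 points, against 4.18% of all measured starts and 11% of those in the level range. Lhx5 was also the 1 of the 5 starts with enough calls per pool whose pools did not overlap, against 1.45% of all starts and 3.77% of those in the level range. Outside the starts, 9 genes were measured, with 6 lower and 3 higher and a median of -4.71 points, while over all 4190 genes measured there 55.6% were lower with a median of -0.642 points, and over the 2541 in the level range 55.9% with a median of -1.04 points. Lhx6 and Isl2 differed by at least 10 points there, 2 of 9, against 9.5% of all genes and 13.5% of those in the level range. Lhx2 alone of the 6 with enough calls had pools that did not overlap, against 2.48% of all genes and 2.86% of those in the level range.

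**Figure D2:**
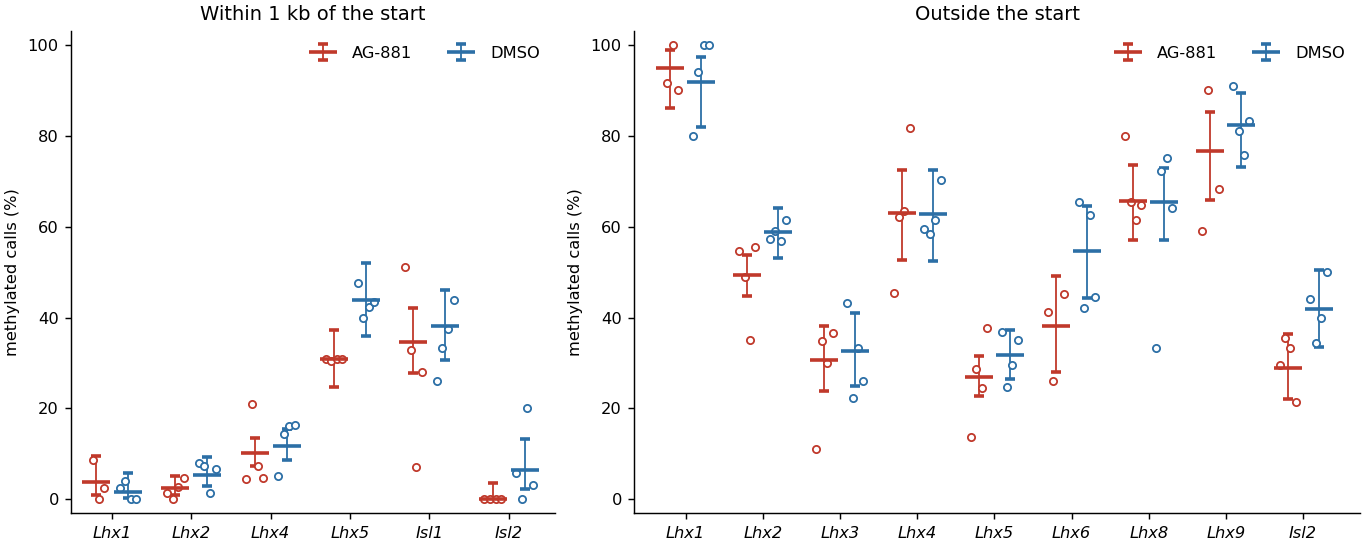
Methylated calls (%) within 1 kb of the start (left panel) and in the remainder of each region (right panel), for the genes measured there, AG-881 left (red) and DMSO right (blue). Thick bars are pooled levels with exact 95% intervals and open circles are pools with at least 10 calls. At the start of Lhx5 the AG-881 pools sit between 30.4% and 30.9%, below the DMSO pools.

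**Figure D3:**
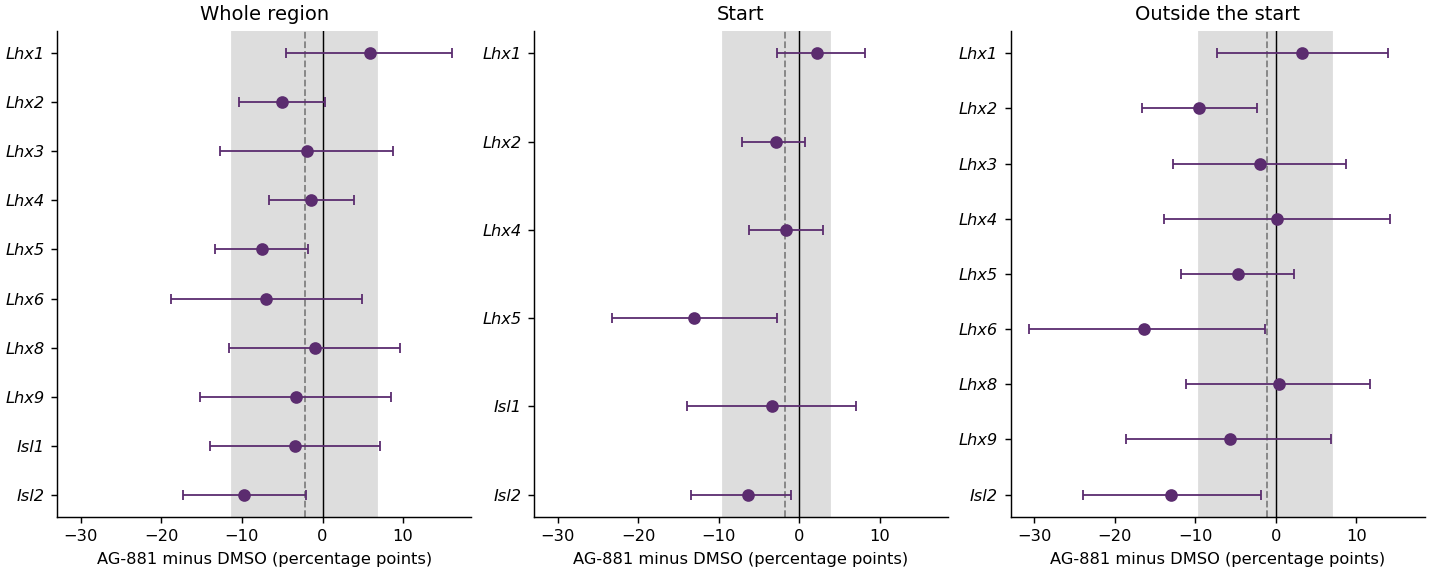
Difference of AG-881 minus DMSO (percentage points, x axis) at each measured LIM homeobox gene, in the whole region, at the start and outside the start. Points have 95% intervals, the grey band runs from the 10th to the 90th percentile of all genes in the same level range, and the dashed line is their median (-2.14, -1.82 and -1.04 points). Lhx5 lies left of the band at the start, and Lhx6 and Isl2 outside the start.

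The starts fall into unmethylated and partly methylated ones, and their sequences show how much of each promoter the assay reached. RefSeq gave a promoter of 300 bases (250 before the start and 50 after it, build GRCm38.p6) for 9 of the 10 genes, Lhx5 being without an entry. The site of MspI, the enzyme used (CCGG, the same on both strands), was present in 7 of the 9 promoters and in 53% of all 26794 promoters. Among the measured starts of genes with an entry, those of Isl1 and Lhx1 had the highest and the lowest mean level and that of Isl2 the largest difference, and their promoters are given with both listed promoters of Lhx2. Those of Lhx2 were added after its values were seen, because the arms differed more at its second start. Each is written 5′ to 3′ on the strand of its gene, and capitals mark the CpGs with a call in any cell.
Isl1, chr13:116309639-116309938, minus strand: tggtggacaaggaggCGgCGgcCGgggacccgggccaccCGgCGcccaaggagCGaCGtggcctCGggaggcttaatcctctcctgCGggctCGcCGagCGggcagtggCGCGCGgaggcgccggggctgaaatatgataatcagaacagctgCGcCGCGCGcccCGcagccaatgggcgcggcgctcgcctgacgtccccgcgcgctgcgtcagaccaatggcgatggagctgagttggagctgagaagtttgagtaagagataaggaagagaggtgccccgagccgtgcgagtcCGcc
Lhx1, chr11:84525485-84525784, minus strand: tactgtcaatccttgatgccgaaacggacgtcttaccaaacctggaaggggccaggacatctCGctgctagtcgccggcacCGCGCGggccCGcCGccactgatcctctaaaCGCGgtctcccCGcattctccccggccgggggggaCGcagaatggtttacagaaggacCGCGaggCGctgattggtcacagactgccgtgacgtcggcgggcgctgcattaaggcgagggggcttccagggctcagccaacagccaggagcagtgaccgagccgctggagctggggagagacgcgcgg
Isl2, chr9:55540899-55541198, plus strand: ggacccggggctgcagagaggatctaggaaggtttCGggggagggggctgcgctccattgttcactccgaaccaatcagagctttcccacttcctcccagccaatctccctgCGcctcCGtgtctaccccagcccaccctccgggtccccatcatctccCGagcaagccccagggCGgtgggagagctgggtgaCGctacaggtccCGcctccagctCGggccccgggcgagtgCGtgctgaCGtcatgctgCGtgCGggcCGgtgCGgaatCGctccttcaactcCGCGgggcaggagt
Lhx2 first start, chr2:38339031-38339330, plus strand: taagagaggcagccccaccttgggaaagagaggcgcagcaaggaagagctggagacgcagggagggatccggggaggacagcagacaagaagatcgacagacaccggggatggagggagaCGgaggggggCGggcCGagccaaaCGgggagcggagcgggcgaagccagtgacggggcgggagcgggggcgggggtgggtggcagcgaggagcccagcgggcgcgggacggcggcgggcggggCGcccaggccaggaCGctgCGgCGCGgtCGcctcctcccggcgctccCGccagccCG
Lhx2 second start, chr2:38351058-38351357, plus strand: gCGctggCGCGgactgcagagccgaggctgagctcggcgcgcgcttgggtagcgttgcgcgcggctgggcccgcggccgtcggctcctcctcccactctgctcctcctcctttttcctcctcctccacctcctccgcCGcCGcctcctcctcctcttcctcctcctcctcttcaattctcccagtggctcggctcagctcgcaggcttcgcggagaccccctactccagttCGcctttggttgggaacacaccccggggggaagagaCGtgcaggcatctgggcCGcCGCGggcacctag
The Isl1 promoter held 37 CpGs, of which 21 had calls, while that of Lhx1 held 31 with 13, and that of Isl2 held 23 with 17. Promoters of all genes held a median of 7 CpGs, and those of the 9 LIM homeobox genes between 4 (Lhx8) and 37 (Isl1). Dense CpGs went with different levels. In the Lhx1 promoter 0 of 39 calls were methylated in AG-881 cells and 0 of 36 in DMSO cells, which allows levels of up to 7.69% and 8.33%. In the Isl2 promoter 0 of 113 calls were methylated in AG-881 cells and 0 of 70 in DMSO cells, which allows up to 2.65% and 4.29%. Isl1, by contrast, had 37 of 128 calls methylated in AG-881 cells and 31 of 98 in DMSO cells across the same length.

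Lhx1 and Lhx5 are close relatives, both made in the early neural tube, where Lhx1 also serves the organizer of the head and both are used by Purkinje cells and spinal interneurons. They differed from each other at their starts. The start of Lhx1 (chromosome 11, position 84525534, minus strand) was nearly unmethylated, at 3.85% in AG-881 cells (interval 1.06 to 9.56, 104 calls in 24 cells) and 1.61% in DMSO cells (interval 0.196 to 5.70, 124 calls in 28 cells). This window also holds 1 end of the long noncoding RNA (lncRNA) gene Lhx1os. Beyond the start the same gene was almost fully methylated, at 95% in AG-881 cells (57 of 60 calls) and 91.8% in DMSO cells (56 of 61 calls), and in the bin from 3000 bp after the start every call was methylated, 34 in AG-881 cells and 30 in DMSO cells. Over the whole region Lhx1 was the 1 gene of the 10 that was higher in AG-881 cells, 37.2% and 31.4%, but the interval (-4.50 to 16.1) included 0 and the pools overlapped. The difference of 5.84 points was larger than at the start (2.23 points) and outside it (3.20 points). Of all calls, 60 of 164 lay outside the start in AG-881 cells and 61 of 185 in DMSO cells. With every CpG at the same weight the difference was 2.51 points, and with every cell at the same weight 1.79 points. Leaving out any 1 pool at the same CpGs kept the difference between 3.83 and 8.65 points. With the CpGs chosen again without AG-881 pool 2 it was -5.89 points, over 80 DMSO calls in place of 185.

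Lhx5 had the difference between arms that was most even over pools. At its start (chromosome 5, position 120431886, the CpG-denser end of the gene), 30.8% of calls were methylated in AG-881 cells (interval 24.8 to 37.3, 221 calls in 28 cells) and 43.9% in DMSO cells (interval 35.9 to 52.1, 155 calls in 27 cells). The AG-881 pools had 30.9%, 30.4%, 30.9% and 30.9%, and the DMSO pools 47.6%, 40%, 42.2% and 43.4%. No AG-881 pool reached the lowest DMSO pool, although DMSO pool 6 rests on 15 calls. The difference was -13.1 points (interval -23.3 to -2.81) and stayed between -15.3 and -6.30 in the 24 alternative settings and omissions of 1 pool that gave a value. The lncRNA genes Gm27199 and Gm31976 each have 1 end inside this window, and their strand was not looked up. In the 500 bp after the start, from 120431886 to 120432385, the levels were 28.8% in AG-881 cells and 38.7% in DMSO cells (interval of the difference -21.3 to 1.67), with each AG-881 pool (26.1% to 32.6%) again below each DMSO pool (34.1% to 43.3%). Farther into the gene the arms were closer, 27% in AG-881 cells and 31.7% in DMSO cells over 408 and 300 calls, with overlapping pools. Over its whole region Lhx5 had 28.3% in AG-881 cells and 35.8% in DMSO cells, a difference of -7.53 points (interval -13.3 to -1.77) that shrank to -0.686 points at CpGs covered by 10 or more cells per arm and to -0.803 points when every CpG called in any cell was used.

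**Figure D4:**
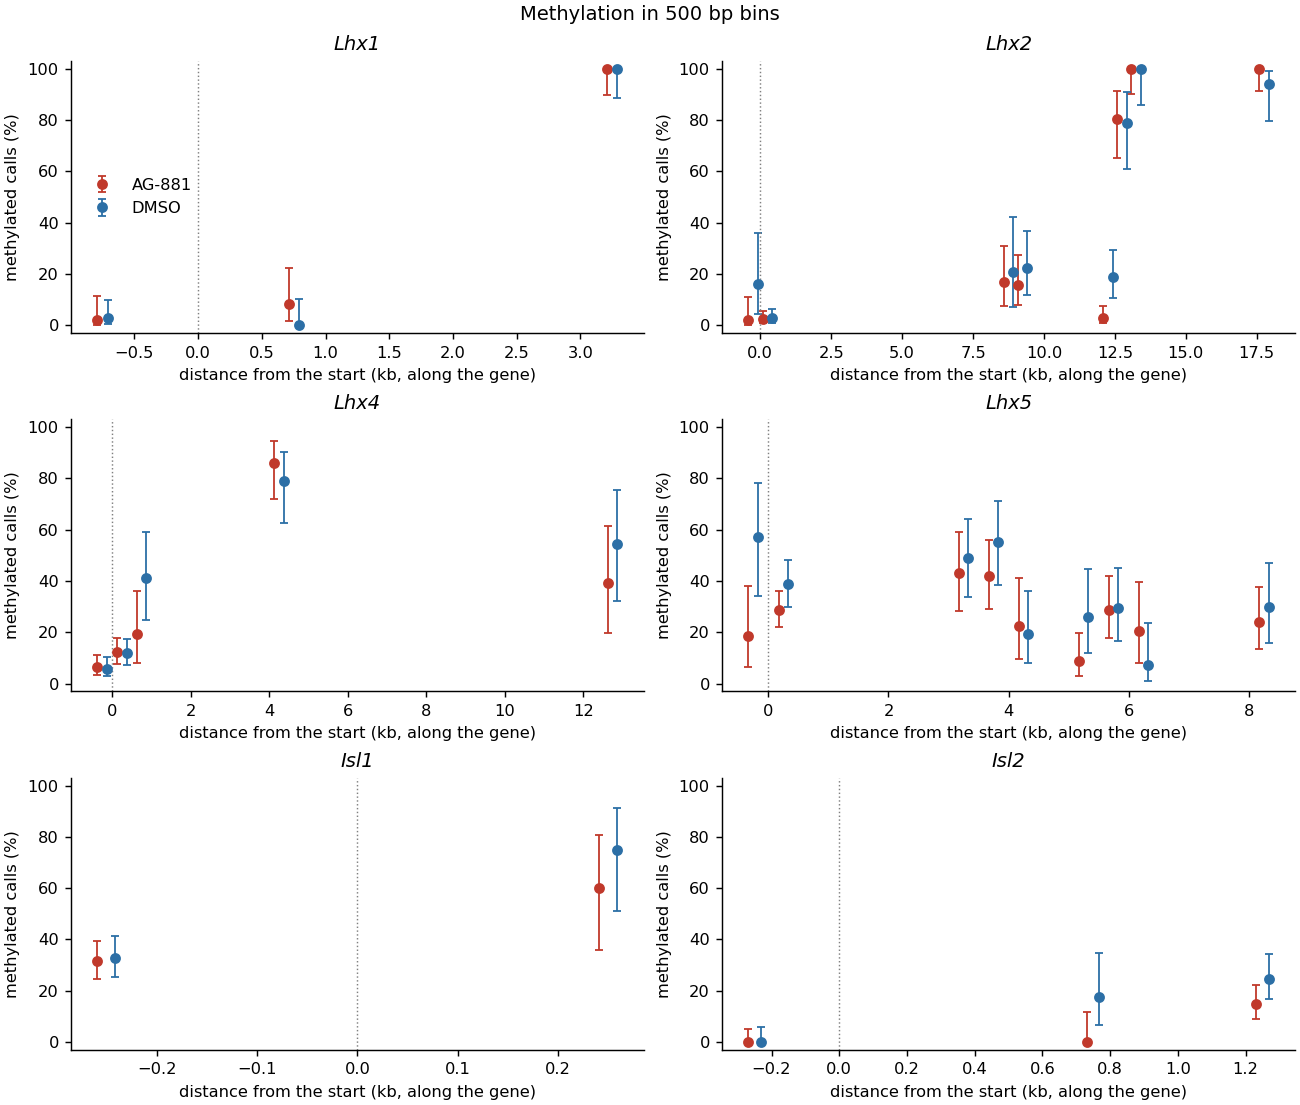
Methylated calls (%) in bins of 500 bp against the distance from the start along the gene (kb), for 6 LIM homeobox genes and bins with at least 20 calls per arm. Points are pooled levels with exact 95% intervals, AG-881 in red drawn left of DMSO in blue. Lhx1 and Lhx2 go from nearly 0 at the start to 100% inside the gene, whereas Lhx5 stays between 7.14% and 57.1% throughout.

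Lhx2, needed for the cortex and the eye, and Lhx9, its relative in the thalamus and the gonad, differed most from each other in level. The first start of Lhx2 (chromosome 2, position 38339281, plus strand) had 2.52% in AG-881 cells (interval 1.02 to 5.12, 278 calls in 34 cells) and 5.43% in DMSO cells (interval 2.84 to 9.29, 221 calls in 28 cells). Its pools overlapped. The difference stayed between -4.91 and -1.88 points without any 1 pool at the same CpGs, and had the other sign, 0.909 points, with the CpGs chosen again without DMSO pool 6. At the second listed start, farther into the gene at position 38351308, 22% of calls were methylated in AG-881 cells (interval 16.2 to 28.7, 182 calls in 34 cells) and 38.1% in DMSO cells (interval 29.1 to 47.7, 113 calls in 25 cells). The AG-881 pools there had 15.8%, 24.2%, 11.8% and 29.1%, and the DMSO pools 48.6%, 45.8%, 22.2% and 29.4%, so DMSO pool 7 lay inside the range of the AG-881 pools. The difference of -16.1 points (interval -27.3 to -4.86) was between -21.5 and -9.13 in all 23 alternatives that gave a value. This second start was examined after the data had been seen.

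Among the bins of Lhx2 with at least 50 calls per arm, the largest difference lay just at that second start, from 38351281 to 38351780, with 2.94% methylated in AG-881 cells (4 of 136 calls in 23 cells) and 18.7% in DMSO cells (14 of 75 calls in 12 cells). DMSO pool 6 alone had 40.9% of 22 calls. Without pool 6 DMSO had 9.43% and the difference was -6.49 points, against -15.7 points with it. The next bin, from 12500 bp after the first start, had 80.5% in AG-881 cells and 78.8% in DMSO cells, and the bin after that 100% in both arms. A stretch of low methylation thus ended within 1 kb. In the bin at the second start DMSO pools 7 and 8 were low too, at 7.69% and 5%. AG-881 pool 2 had 8% there, so the pools of the arms overlapped. Over everything outside the first start, Lhx2 had 49.3% in AG-881 cells (interval 44.7 to 53.8, 481 calls in 49 cells) and 58.8% in DMSO cells (interval 53.2 to 64.2, 325 calls in 47 cells). The AG-881 pools had 54.5%, 48.9%, 35.1% and 55.6%, each below the DMSO pools at 57.3%, 59%, 56.8% and 61.5%. That difference of -9.50 points (interval -16.6 to -2.30) kept its sign in all 24 alternatives that gave a value, between -14.3 and -5.09. The difference over the whole region (-5.03 points) was -4.34 points without DMSO pool 5 at the same CpGs and 3.08 points with the CpGs chosen again without that pool.

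Lhx9 was highly methylated in both arms. Outside its start it had 76.5% in AG-881 cells (81 calls in 23 cells) and 82.3% in DMSO cells (96 calls in 33 cells), and at the start 54.8% and 50% over 31 and 34 calls, too few to count as measured. The arms did not differ beyond counting error in either part, since both intervals included 0 (-18.6 to 6.86 and -20.9 to 29.9 points). When every cell had the same weight the difference over the whole region was -15.8 points, against -3.31 points by calls, and by calls it had the other sign, between 0.239 and 2.62 points, in 3 of 8 omissions of a pool at the same CpGs (AG-881 pools 1 and 4 and DMSO pool 8).

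Lhx3 and Lhx4, which act together in the pituitary and in motor neurons as they leave the cell cycle, gave different pictures. The window of the first start of Lhx3 (chromosome 2, position 26208249, minus strand), which reaches into the neighbouring gene Qsox2, held no CpG of the table. At its second listed start, 26206575, the level was 27.7% in AG-881 cells (interval 17.3 to 40.2, 65 calls in 20 cells) and 47% in DMSO cells (interval 34.6 to 59.7, 66 calls in 20 cells). This window rests on 5 CpGs, and 0 of them lie in the promoter of 300 bases. Over all calls in that promoter, 22 of 81 were methylated in AG-881 cells and 10 of 33 in DMSO cells. The AG-881 pools had 0%, 28.6%, 33.3% and 44.4%, and the DMSO pools 42.9%, 22.2%, 55% and 56.2%, of which pool 6 rests on 9 calls, so the pools overlapped. The difference of -19.3 points (interval -35.7 to -1.67) was between -25.7 and -6.24 in all 25 alternatives, and it too was examined after seeing the data. Within Lhx3 the differences ran both ways, but the first bin given next holds 4 of the 5 CpGs of the second start and is no separate result. The bin from 26206750 to 26207249 had 19% in AG-881 cells and 41.7% in DMSO cells (58 and 60 calls, interval of the difference -38.9 to -5), whereas the bin from 26202250 to 26202749 had 34.7% in AG-881 cells and 21.7% in DMSO cells (95 and 69 calls, interval -1.96 to 26.8). That increase of 13 points was 4.74 points without DMSO pool 8 and 24.5 points without DMSO pool 5. Over the whole region these offset each other, with 30.6% in AG-881 cells and 32.6% in DMSO cells, and at the CpGs covered by 10 or more cells per arm, which are those of the first bin, the difference was -22.7 points.

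Lhx4 had the most calls of any start and the smallest difference among the starts measured. The start (chromosome 1, position 155742027, minus strand) had 10.2% in AG-881 cells (interval 7.42 to 13.6, 402 calls in 50 cells) and 11.8% in DMSO cells (interval 8.72 to 15.4, 382 calls in 56 cells), a difference of -1.58 points whose interval ran from -6.18 to 2.98 and which had the other sign in 8 of 25 alternatives. The pools within an arm spread far more than the arms, from 4.49% to 20.9% in AG-881 cells and from 5.04% to 16.5% in DMSO cells. The 500 bp before the start had 6.49% in AG-881 cells and 5.88% in DMSO cells, and the 500 bp after it 12.2% and 11.8%. Outside the start the level was 63% in AG-881 cells and 62.9% in DMSO cells, and the interval of the difference (-13.9 to 14.2) bounds it at about the size of the largest differences seen in the family.

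Lhx6 and Lhx8 mark neurons born in the ventral forebrain, Lhx6 the cortical interneurons of the medial ganglionic eminence and Lhx8 the cholinergic neurons of the basal forebrain. Outside its start, Lhx6 was less methylated in AG-881 cells, at 38.2% (interval 28.1 to 49.1, 89 calls in 26 cells), against 54.5% in DMSO cells (interval 44.2 to 64.6, 99 calls in 31 cells). The difference of -16.3 points (interval -30.6 to -1.32) was the largest of the 9 genes measured there and kept its sign in all 23 alternatives that gave a value, between -26.3 and -7.49. The AG-881 pools had 41.2%, 25.9%, 33.3% and 45.2%, and the DMSO pools 65.5%, 42.1%, 62.5% and 44.4%. AG-881 pool 4 lay above DMSO pools 6 and 8, and AG-881 pool 3 rests on 3 calls. At the start of Lhx6 (chromosome 2, position 36105408, minus strand) the values went the other way, 21.6% in AG-881 cells and 10.6% in DMSO cells, but over 37 and 47 calls in 8 and 10 cells, with an interval of -6.18 to 29 points. Over the whole region of Lhx6 the difference was -7.08 points, and -14.2 points without AG-881 pool 4 at the same CpGs. With the CpGs chosen again without that pool it was 9.01 points, over 52 DMSO calls in place of 146.

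Lhx8 was alike in level in both arms and methylated where CpGs of the table are dense. The whole region had 57.8% in AG-881 cells (173 calls in 30 cells) and 58.8% in DMSO cells (182 calls in 32 cells), with an interval of the difference from -11.6 to 9.60 points. Its start (chromosome 3, position 154330560, minus strand) had 27.8% and 28.1% over 36 and 32 calls, too few to count as measured, and the lncRNA gene AI606473 begins within that window. At 10 CpGs of Lhx8 with 20 or more CpGs of the table within 100 bp, 69% of 84 calls were methylated in AG-881 cells and 64.8% of 91 calls in DMSO cells.

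Isl1 and Isl2, the Islet genes of motor neurons, with Isl1 also in heart and pancreas progenitors, stood far apart at their starts. Isl1 (chromosome 13, position 116309688, minus strand) was partly methylated, with 34.6% in AG-881 cells (interval 27.7 to 42, 182 calls in 21 cells) and 38% in DMSO cells (interval 30.6 to 46, 163 calls in 20 cells), and all its used CpGs lie in the start window. The AG-881 pools had 51%, 32.9%, 7.14% and 27.9%, and the DMSO pools 26.1%, 33.3%, 37.5% and 43.9%. The AG-881 pools thus enclosed the DMSO pools, and the difference was -3.42 points. At the same CpGs it was -3.70 points without DMSO pool 7 and 0.595 points without DMSO pool 8, and with the CpGs chosen again it was 9.62 and 7.86 points. In the promoter shown above, the 11 CpGs used had 23.4% methylated in AG-881 cells (26 of 111 calls) and 27.8% in DMSO cells (22 of 79 calls).

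Isl2 (chromosome 9, position 55541149, plus strand) had no methylated call at its start in AG-881 cells, 0 of 99 in 23 cells, which allows up to 3.03%, and 6 methylated calls of 94 in DMSO cells (6.38%, interval 2.38 to 13.4, 23 cells). The DMSO pools had 5.71%, 0%, 20% and 3.23%, so pool 6 was at 0 like the AG-881 pools, and the 8 used CpGs in the promoter had no methylated call in either arm. The methylation in DMSO cells lay after the start: from 500 to 1000 bp into the gene 0 of 30 calls were methylated in AG-881 cells and 6 of 34 in DMSO cells (17.6%). In the next bin, from 55542149 to 55542648, 14.6% of 123 calls were methylated in AG-881 cells and 24.8% of 101 calls in DMSO cells, a difference of -10.1 points that was -4.60 points without DMSO pool 8. Over the whole region Isl2 had 17.9% in AG-881 cells (interval 13.5 to 23.1, 262 calls in 38 cells) and 27.7% in DMSO cells (interval 22 to 33.9, 235 calls in 39 cells). The AG-881 pools, at 14.5%, 22.9%, 20.8% and 14.6%, all lay below the DMSO pools, at 26.9%, 24.4%, 34.5% and 24.6%. This difference of -9.72 points (interval -17.3 to -2.07) was -2.02 points at CpGs covered by 10 or more cells per arm and -21.7 points when every cell had the same weight. Outside the start it was -13 points (28.8% and 41.8%, interval -24.0 to -1.79), in AG-881 cells pool 2 (35.6%) above DMSO pool 6 (34.4%), and at CpGs covered by 10 or more cells per arm it was 1.92 points.

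Single cells at the starts of Lhx5 and Isl1 mostly showed graded levels rather than fully methylated and unmethylated cells. At Lhx2 and Isl2 nearly all cells lay below 20%, while Lhx4 was mixed. A cell may have as few as 5 calls, and cells need not be read at the same CpGs. At the Lhx5 start, 22 AG-881 cells with at least 5 calls ran from 0% to 66.7% with a median of 29.2%, and 20 DMSO cells from 14.3% to 100% with a median of 40%. Of these, 8 AG-881 cells and 3 DMSO cells lay below 20%, and 0 AG-881 cells and 1 DMSO cell above 80%. At Isl1 the medians were 31.6% over 17 AG-881 cells (0% to 85.7%) and 35.4% over 16 DMSO cells (0% to 83.3%), with 13 and 11 cells between 20% and 80%. At Lhx4, 1 of 37 AG-881 cells and 1 of 37 DMSO cells were fully methylated, against 18 and 20 cells at 0%. There 6 AG-881 cells and 10 DMSO cells lay between 20% and 80%. At Lhx2, 25 of 25 AG-881 cells and 21 of 23 DMSO cells lay below 20%. Cells of 1 arm share a culture, so these counts describe the cells and compare no conditions.

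**Figure D5:**
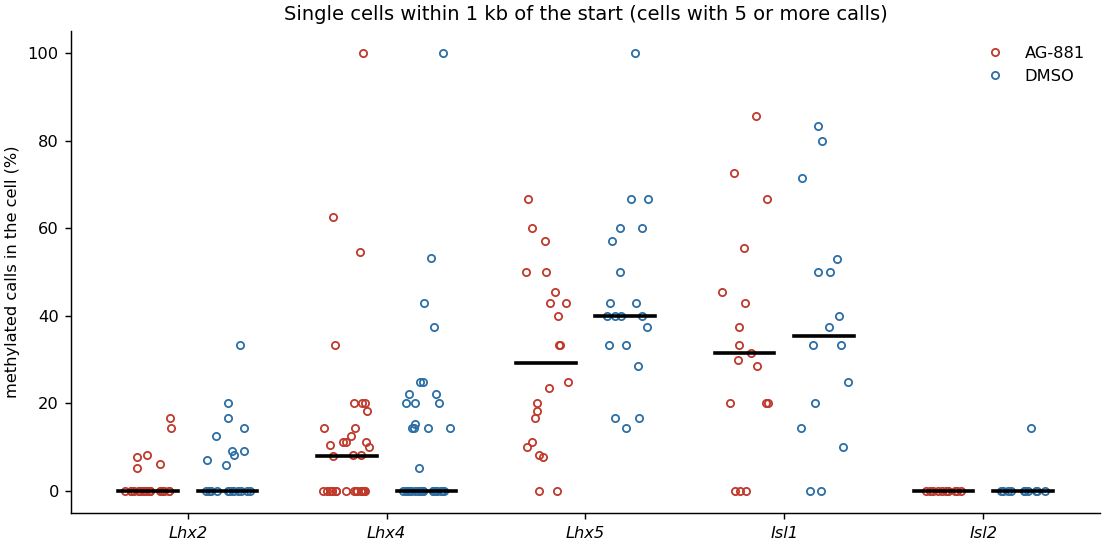
Methylated calls (%) in single cells within 1 kb of the start of 5 LIM homeobox genes, for cells with at least 5 calls, AG-881 left (red) and DMSO right (blue), with black lines at the medians. At Lhx5 the medians are 29.2% and 40%, and at Isl2 all cells but 1 are at 0%.

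At CpGs of dense and middle density the LIM homeobox genes were more methylated than the whole table in both arms, and at sparse CpGs less in AG-881 cells. Density here counts CpGs of the table within 100 bp, the CpG itself included, and so depends on what the assay reached. The Lhx1 promoter, for example, held 31 CpGs, but Lhx1 had 0 CpGs in the densest class. At CpGs with 20 or more CpGs within 100 bp, the 10 genes had 30.7% in AG-881 cells (interval 25.6 to 36.2, 306 calls) and 33% in DMSO cells (interval 27.6 to 38.7, 288 calls), while the whole table had 4.78% and 5.70%. These are 33 CpGs in 5 genes, and most of the methylated calls came from Lhx8 and Isl1, whereas the 8 such CpGs of Lhx2 had 2.30% in AG-881 cells and 3.41% in DMSO cells. At the 276 CpGs of middle density, with 5 to 19 within 100 bp, the level was 29.5% in AG-881 cells (interval 27.7 to 31.3) and 33.9% in DMSO cells (interval 31.8 to 35.9) at the 10 genes, while the whole table had 20.6% and 21.7%. At sparser CpGs, with 1 to 4 within 100 bp, the level was 47.8% in AG-881 cells (interval 42.2 to 53.4, 318 calls) and 59.5% in DMSO cells (interval 53.2 to 65.5, 259 calls) at the 10 genes, while the whole table had 62% and 62.7%, the last of these inside the interval of the genes. The difference between arms at these 39 sparse CpGs was -11.7 points (interval -19.9 to -3.24), at those of middle density -4.36 points (interval -7.09 to -1.62) and at the dense ones -2.27 points (interval -9.97 to 5.44). In the whole table the same classes differed by -0.684, -1.10 and -0.922 points.

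Relatives and partners of these genes are described by counts alone. Both remaining LIM homeobox genes, Lmx1a and Lmx1b of dopamine neurons and the roof plate or limb, were lower in AG-881 cells, at 30.8% and 51.6%, against 35.8% and 53.9% in DMSO cells, with both intervals including 0. Of the LIM-only proteins and LIM-domain-binding partners, 7 of 10 genes were measured, with 3 lower, 4 higher and a median of 0.147 points. Their adaptor Ldb1 had 8.22% in AG-881 cells and 8.67% in DMSO cells. Ssbp4, a single-stranded DNA-binding partner of the complex, was highest in difference (56.9% in AG-881 cells, 46.9% in DMSO cells, interval 4.18 to 15.7 points), and the LIM-only gene Lmo2 lowest (21.4% and 27.3%, interval -14.2 to 2.41). Among neuronal genes linked to LIM factors, 10 of 11 were measured, 8 lower and 2 higher, at a median of -6.37 points. Chat and Slc18a3 shared the same 64 calls in AG-881 cells and 89 in DMSO cells at their starts. Both count as lower, so they are not separate genes in this count and median. Gata3, a factor of spinal interneurons, had 37.9% in AG-881 cells and 36.7% in DMSO cells. Of 14 brain patterning homeobox genes, 12 were measured, 11 lower and 1 higher, at a median of -3.34 points, from Barhl2 (27.1% in AG-881 cells, 41.9% in DMSO cells) to Emx2 (17.3% and 16.1%). Of 10 Nkx homeobox genes, 7 were measured, 3 lower and 4 higher, at a median of 0.538 points, from Nkx2-5 (78.3% and 84.2%) to Nkx6-1 (26.9% and 19.3%). The median of the 10 LIM homeobox genes, -3.37 points, lay near those of the brain patterning genes and of Lmx1a and Lmx1b (-3.60 points). It lay below those of the Nkx genes and the LIM-domain-binding partners and above that of the neuronal genes. These medians are not matched for level. The LIM-domain-binding partners had median levels of 8.22% in AG-881 cells and 8.67% in DMSO cells, against 32.7% and 36.5% for the 10 genes. The differences between these lists were not tested.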

How the data were processed

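Methylation came from 1 deposited table of 141 cells, in which the authors give each cytosine position of each cell a methylated fraction of 0, 0.5 or 1 (0.412% at 0.5). Per the submitters' processing notes, positions follow mm10; aligner, methylation caller and minimum reads: not given in the sources used here. Read depth is unknown. Joint transcriptomes were not analysed here. Column names give arm, pool and barcode, not the well. All columns were matched to an arm.

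The autosomes (1 to 19) and X were kept, neighbouring positions merged as the strands of 1 CpG, a CpG was methylated above 50%, and ties (0.649% of calls) were left out. Levels pool calls at CpGs covered by 5 or more cells in both arms, whereas counts over all calls of a promoter use CpGs called in any cell. Intervals of differences combine both arms' Clopper-Pearson intervals (Newcombe). A region was measured with 50 calls and 10 cells per arm. A level of 0 was given an upper limit of 3 calls of the total. Gene ends and promoters came from RefSeq (GRCm38.p6, the same sequence as mm10), and a start is the first listed one, or, for Lhx5, the CpG-denser end. Exons were not used here. The window is 1 kb, and a single-cell level needs 5 calls. Named were all 10 genes, the 500 bp bins of each with the largest decrease and increase, and in each comparison list the genes with the largest decrease and increase. One of these is not reported here. The members and lists were chosen with earlier results of these data known. The difference, its interval and the rule of 10 points were tested on simulated calls, which were drawn independently of each other, unlike calls of 1 cell. The calculation of levels was not part of that test. Python 3.11.15, numpy 2.4.6, pandas 2.3.3, scipy 1.17.1 and matplotlib 3.10.9 were used. Alternatives changed the CpGs used, weights, ties, strands, windows and pools, each pool being left out with the CpGs chosen again and, added after seeing the data, at the same CpGs.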

Additional observations from a re-analysis of the deposited data

How the results depend on the processing

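The pooled difference of the 10 LIM homeobox genes was negative in all 25 alternatives (-6.38 to -1.47 points, against -4.75), the smallest being -1.47 points with every cell at the same weight, which moved it beyond the counting interval. Outside the starts it was negative in all 25 (-10.2 to -4.43 points, against -7.91). The median over the genes was between -7.01 and -1.15 points. Leaving out 1 pool with the CpGs chosen again, between 6 and 10 genes were lower. Leaving it out at the same CpGs, a setting chosen after seeing the data, between 5 and 9 were lower, and the pooled difference at the starts kept its sign in all 8 omissions, whereas it changed sign in 1 of 8 with the CpGs chosen again. At CpGs covered by 10 or more cells per arm 5 genes had enough calls and 5 were lower, though apart from Lhx3 the differences were small. They were -22.7 points at Lhx3, -2.24 at Lhx2, -2.02 at Isl2, -1.15 at Lhx4 and -0.686 at Lhx5. Outside the start of Isl2 the difference turned to 1.92 points at those CpGs. With a minimum of 100 calls from 20 cells per arm, 4.15% of gene regions differed by 10 points, and 20.1% of all measured regions differed by 5 points. The causes were not tested. No paired analysis was possible because the labels give no replicate numbers, each arm is 1 sample and no pool holds both arms. Depth limits most single genes: at Lhx6, Lhx8 and Lhx9 the starts had under 50 calls per arm, and the counting interval of the difference included 0 at 8 of the 10 regions.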
